A study of Mus musculus with 6 samples.

Results

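The genes described here are 8 genes of the YAP and TEAD pathway, among them both of its best known CCN targets, measured in the livers of young male mice in which both copies, or 1 copy, of the gene for the transcription factor SRF were open to deletion. They are the secreted matrix proteins Ccn1 and Ccn2, the nuclear ankyrin repeat protein Ankrd1, the YAP-binding protein Amotl2, the kinase Lats2, the coactivators Yap1 and Wwtr1 (the gene for TAZ), and the DNA-binding factor Tead1. Their 21 probe sets were those annotated with exactly 1 gene symbol, that of 1 of the 8 genes, out of 34945 probe sets with 1 symbol for 18193 genes. Another probe set, listed for both Lats2 and its neighbour Xpo4, was left out by that rule. The array carried 4 probe sets for Ccn1, 1 each for Ccn2 and Amotl2, 2 each for Ankrd1, Yap1 and Tead1, 3 for Wwtr1 and 6 for Lats2.

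Total RNA from liver was hybridised to 1 Affymetrix array per mouse, with 3 control and 3 mutant males, all 3 weeks old. Controls had the genotype Srf loxP/+ AlfpCre and mutants Srf loxP/loxP AlfpCre. Both groups thus carried the Cre transgene, and the controls too had 1 copy of Srf that Cre can delete. AlfpCre places Cre under regulatory elements of the albumin and alpha-fetoprotein genes, which are active in hepatoblasts, the precursors of hepatocytes and bile duct cells, so stellate, endothelial and blood-derived cells are not its target. Since whole liver was used, fewer cells of a type and less RNA per cell cannot be told apart in any value given here.

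YAP and TAZ are coactivators without a DNA-binding domain of their own. In the nucleus they bind TEAD factors and switch on genes for growth, adhesion and matrix, while the Hippo kinases MST and LATS phosphorylate them and hold them in the cytoplasm. In liver the pathway is known for its control of organ size and of the choice between hepatocyte and bile duct fate. Several YAP targets, among them Ccn1, Ccn2 and Ankrd1, are also described as targets of SRF with its actin-regulated MRTF cofactors, so the comparison asks how they stand in liver in which Srf is deleted.

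The core of the TEAD recognition sequence is GGAATG, and its matches in the promoters are shown because TEAD is the factor through which YAP and TAZ reach their targets. RefSeq promoter windows of build GRCm38.p6, covering 250 bases before and 50 after a transcript start, were matched to 6 of the 8 genes by symbol, with 8 windows in all since Wwtr1 and Lats2 had several. GGAATG, on either strand, was found in 7 of the 8 windows and in all 6 genes (Ccn1, Ankrd1, Amotl2, Lats2, Yap1 and Wwtr1), against 14.7% of all 32851 windows. Counting only the bases before the start, it was found in 6 windows and 5 genes, against 12.6% of all windows. A perfect CArG box (CC, then 6 bases of A or T, then GG), the motif that SRF binds, was found in 0 of these 8 windows. It was found in 1.63% of all windows, so rare that its absence from 8 says little. Imperfect boxes and sites outside the windows were not sought, and Ccn2 and Tead1 had no window. A match is a match of letters and not a measured binding site. The 2 target promoters are shown as the 250 bases before the start and the other sites as 30 bases, 5′ to 3′ on the gene's strand, with GGAATG or its reverse complement CATTCC in capitals.
Ccn1, chr3:145649986-145650235, minus strand: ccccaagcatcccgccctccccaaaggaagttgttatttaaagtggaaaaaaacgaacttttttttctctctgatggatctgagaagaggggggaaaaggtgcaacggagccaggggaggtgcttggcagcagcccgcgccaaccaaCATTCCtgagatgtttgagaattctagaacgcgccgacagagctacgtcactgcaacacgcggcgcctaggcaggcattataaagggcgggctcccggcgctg
Ankrd1, chr19:36119845-36120094, minus strand: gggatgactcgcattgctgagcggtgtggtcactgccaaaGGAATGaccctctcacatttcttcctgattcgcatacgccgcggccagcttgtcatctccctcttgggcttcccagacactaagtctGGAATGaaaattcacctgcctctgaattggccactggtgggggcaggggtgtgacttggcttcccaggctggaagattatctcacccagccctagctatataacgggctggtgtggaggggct
Amotl2, chr9:102717727-102717756, plus strand: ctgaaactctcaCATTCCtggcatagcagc
Lats2, chr14:57746102-57746131, minus strand: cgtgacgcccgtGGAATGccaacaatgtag
Yap1, chr9:8004720-8004749, minus strand: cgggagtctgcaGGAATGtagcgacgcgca
Wwtr1, chr3:57576029-57576058, minus strand: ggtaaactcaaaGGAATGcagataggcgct
The Ccn1 site begins 103 bases before the start and the Amotl2 site 65, both on the opposite strand. Ankrd1 has a pair of sites, 210 and 123 bases before its start. The Yap1 site begins 141 bases before the start and the Wwtr1 site 136 before the more upstream of its starts. The Lats2 site begins at base 5 after the start.

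The arrays differed in ways that touch these genes. The first principal component over all probe sets tested held 50.3% of the variance and placed mutant 1 apart, at 177 against -22.8 and 43.9 for mutants 2 and 3 and between -77.5 and -50.6 for controls. The ratio of 3' to 5' signal on the Actb control probe sets, which rises as RNA degrades, was also highest in mutant 1, at 5.33, against 1.68 to 2.36 in controls and 2.36 and 2.92 in mutants 2 and 3 (two-sided exact permutation p = 0.2, where 0.1 is the smallest that 3 against 3 arrays allow). For Gapdh, control arrays 1 to 3 had ratios of 0.711, 0.679 and 0.756 and mutant arrays 1 to 3 ratios of 1.01, 0.773 and 0.866, so every mutant lay above every control (exact permutation p = 0.1, the smallest possible). For Pcx it was 4.44 to 7.03 in controls and 6.39 to 17.3 in mutants, with overlap (exact permutation p = 0.2). The part of RNA quality in the values below was not tested beyond the fits adjusted for these ratios. Srf itself (1418256_at) had log2 signals of 5.31, 5.14 and 5.11 in controls and 4.17, 5.24 and 2.54 on mutant arrays 1 to 3 (limma adjusted p = 0.398), so mutant 2 lay within the control range. The second Srf probe set (1418255_s_at) was dimmer, at 3.002, 3.69 and 3.37 in controls, and there mutant 1 (3.29) lay inside the control range, mutant 3 (1.99) below it and mutant 2 at the floor of 0 (limma adjusted p = 0.411). The sources used here do not say whether either probe set lies inside the deleted part, so they are no check of the labels. For the genes below, values without mutant 1 are therefore given too.

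None of the 8 genes passed the test between mutant and control liver. On simulated data the test called 6% of true log2 changes of 1 and 42% of changes of 2. Not passing therefore does not show that a gene was unchanged. Signals are given as log2 of the array brightness after the arrays were scaled to equal mean signal, and 18 of the 21 probe sets were bright enough to test. Among them 0 passed an adjusted p of 0.05 in limma, where 20 of all 27022 probe sets tested did (0.0740%), with 4 above controls (0.0148%) and 16 below (0.0592%). An unadjusted p under 0.05 was reached by 4 of the 18, all higher in mutants, against 13.8% of all probe sets in either direction and 7.60% higher. These were 2 probe sets of Lats2 and 2 of Wwtr1. One of them, Lats2 1426156_at, was tested only through its high mutant arrays, so it does not count toward that direction. On the deposited scaling, with the arrays not rescaled, 2 of the 18 reached it, Lats2 1426156_at and Ccn1 1438133_a_at, the latter lower in mutants (-1.16). There 3895 of all 27022 probe sets did, 470 of them higher. With arrays centred on their median only Lats2 1426156_at reached it, beside 3900 of all probe sets, 956 of them higher. Among all 21 probe sets, on the main scaling, the mutant arrays lay wholly above the controls in 5 and wholly below in 1. Of all 45037 probe sets 11.0% and 6.69% did so. At the brightest probe sets of the 8 genes the counts were 3 and 1, beside 14.1% and 10.8% of all genes. Of the 3, Ankrd1 1420992_at was tested only through its high mutant arrays, so it does not count toward that direction. On the deposited scaling the counts were 1 and 2, without a share over all genes to set beside them. The 1 was again Ankrd1 1420992_at. Probe sets of 1 gene share their transcript and are not independent. On the deposited scaling, under which all genes have a median of -0.39 and not 0.062, 8 of the 18 were positive and not 13. Both counts include Lats2 1426156_at and Ankrd1 1420992_at, which on the main scaling were tested only through their mutant arrays.

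**Figure D1:**
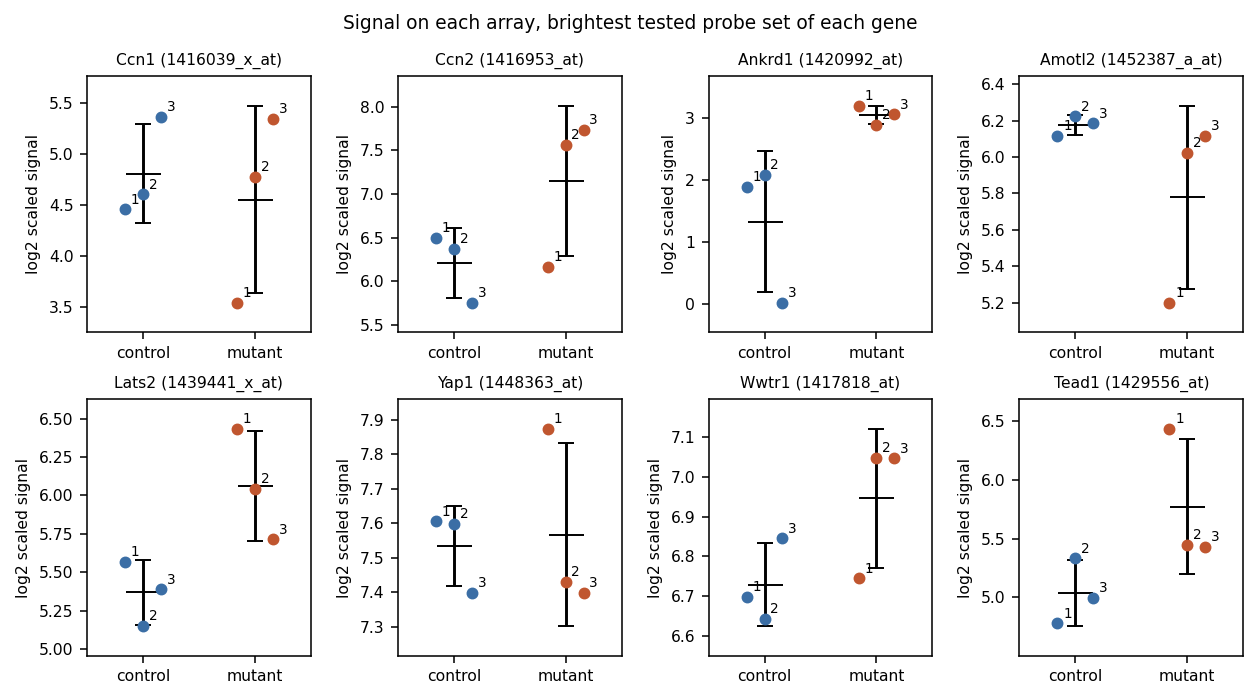
Log2 scaled signal (y axis) on each of the 6 arrays for the brightest tested probe set of each gene; points are single mice numbered by replicate, and the black dash and bar give the mean and SD of 3 arrays. Mutant 1 is the lowest array for Ccn1 and Amotl2 and the highest for Ankrd1, Lats2, Yap1 and Tead1.

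Of the CCN targets, Ccn2 lay higher in mutants 2 and 3. CCN2, formerly CTGF, is a secreted matrix-associated protein that promotes fibrosis and is the most widely used readout of YAP activity. On control arrays 1 to 3 its single probe set (1416953_at) read 6.50, 6.38 and 5.76, and on mutant arrays 1 to 3 it read 6.17, 7.56 and 7.73, as log2 signal. Mutants 2 and 3 lay above every control, while mutant 1 lay inside the control range. On the deposited scaling mutants 2 and 3 again lay above every control, but mutant 1 lay below every control. On the main scaling mutants exceeded controls by 0.94 on the log2 scale (SE 0.44, 95% interval -0.077 to 1.96, adjusted p = 0.378). Without mutant 1 it was 1.44 (SE 0.26, adjusted p = 0.0721), and without mutant 2 or 3 it was 0.74 and 0.65. Ccn2 was positive in each of the 14 alternative settings, between 0.49 on the deposited scaling and 1.97 after adjustment for the 3'/5' index, a summary of RNA quality (adjusted p = 0.656 and 0.407).

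Ccn1, formerly Cyr61, is the close relative of Ccn2 and also a matrix-associated ligand of integrins. Its brightest probe set (1416039_x_at, a type that can detect related transcripts) gave 4.46, 4.61 and 5.36 in controls and 3.54, 4.77 and 5.35 in mutants. Mutants 2 and 3 lay inside the control range and mutant 1 below it. The fold change was -0.25 (SE 0.50, 95% interval -1.41 to 0.90, adjusted p = 0.815), and 0.25 without mutant 1. A second probe set (1438133_a_at) gave 4.71, 4.13 and 3.90 in controls and 2.86, 3.75 and 3.98 in mutants, a fold change of -0.71 (SE 0.43, adjusted p = 0.446) that was -0.38 without mutant 1. It was negative in all 14 alternative settings. The other 2 probe sets had both group means at or below background, the signal of receptor genes assumed silent in liver (2.87 in controls and 3.04 in mutants). One of them, 1442340_x_at, was too dim to test and stood above that level only in mutant 3, at 3.56. At their brightest probe sets Ccn1 and Ccn2 thus differed in sign with all arrays used, and the difference between them was not tested.

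Ankrd1, which binds titin in striated muscle and acts as a nuclear cofactor, was at or near background in liver. The tested probe set (1420992_at) gave 1.89, 2.08 and 0.025 in controls and 3.19, 2.89 and 3.06 in mutants. All mutants lay above all controls, but no control array exceeded background. The mutant mean of 3.05 barely exceeded the mutant background of 3.04, and mutant 2 lay below it. With controls set at their background of 2.87, the mutant mean was 1.14-fold higher (fitted log2 difference 1.72, SE 0.76, adjusted p = 0.366). This probe set was bright enough to test only through its mutant arrays. The other (1420991_at) was left out as dim, with 1.30, 2.19 and 3.07 in controls and 0.74, 1.99 and 3.26 in mutants, and its groups overlapped. Markers of striated muscle, where Ankrd1 is abundant, were likewise dim: 10 of the 12 listed, all with a probe set, had both group means at or below background. Their summed scaled signal was 29.6 to 52.5 in controls and 59.4 to 79.1 in mutants, without overlap, and 9 of the 12 were positive. The scaling had multiplied mutants 1 and 3 by 1.45 and 1.27 and control 2 by 0.77. On the deposited scaling these sums overlapped. Mylpf, a myosin light chain and the brightest of them, gave 2.53, 3.70 and 0.51 in controls and 4.44, 3.84 and 4.06 in mutants. On the main scaling its mutants lay above its controls on every array, at least 2.38-fold by group mean (fitted log2 difference 1.87, adjusted p = 0.357). On the deposited scaling control 2 lay above every mutant. The part of muscle RNA in the Ankrd1 values was not tested. Without mutant 1, 1420992_at was too dim to test.

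Amotl2 binds YAP at cell junctions and is itself a YAP target. Its single probe set (1452387_a_at) gave 6.12, 6.22 and 6.18 in controls and 5.20, 6.02 and 6.11 in mutants. On the main scaling this was the 1 probe set of the 21 in which every mutant lay below every control, although mutants 2 and 3 did so by little. On the deposited scaling Yap1 1448363_at and Ccn1 1438133_a_at did so too, beside Amotl2. The fold change of Amotl2 on the log2 scale was -0.40 (SE 0.31, 95% interval -1.10 to 0.31, adjusted p = 0.536) and -0.11 without mutant 1. It became 0.10 after adjustment for the 3'/5' index and was negative in the other 13 alternative settings.

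Lats2 phosphorylates YAP and TAZ and is switched on by them, which makes it a feedback inhibitor. With all 6 arrays and the main scaling, each of its 6 probe sets had a higher mean in mutants, from 0.016 to 2.42 on the log2 scale, and none passed. The brightest (1439441_x_at, which can detect related transcripts) gave 5.57, 5.15 and 5.39 in controls and 6.43, 6.04 and 5.71 in mutants, with no overlap. On the deposited scaling mutant 3 lay below every control. The fold change was 0.69 (SE 0.29, 95% interval 0.029 to 1.36, adjusted p = 0.357), and 0.51 without mutant 1. It was positive in all 14 alternative settings, the lowest being 0.24 on the deposited scaling. The probe set 1426156_at gave 0.66, 2.51 and 0.18 in controls and 4.53, 2.58 and 3.52 in mutants. With controls set at their background of 2.87, the mutant mean was 1.59-fold higher (fitted difference 2.42, SE 0.85, adjusted p = 0.329). Mutant 2 and control 2 were nearly level there, and on the deposited scaling mutant 2 lay below control 2. No control array exceeded background, and mutant 2 lay below the mutant background of 3.04. This probe set too was tested only through its mutant arrays. Without mutant 1 it was too dim to test.

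The remaining Lats2 probe sets were less uniform. The probe set 1437101_at gave 3.61, 4.04 and 3.76 in controls and 3.98, 4.98 and 4.51 in mutants, with 0.69 (SE 0.37, adjusted p = 0.409). Mutant 1 lay inside the control range, and without it the difference was 0.94. For 1419678_at the difference was 0.016 (SE 0.54), for 1425420_s_at 0.26 (SE 0.52), and in both the groups overlapped. On the deposited scaling these became -0.43 and -0.19, without mutant 1 0.59 and -0.24, and after adjustment for the 3'/5' index 1.10 and -0.91. The last, 1419679_at, was left out as dim and had both group means below background.

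**Figure D2:**
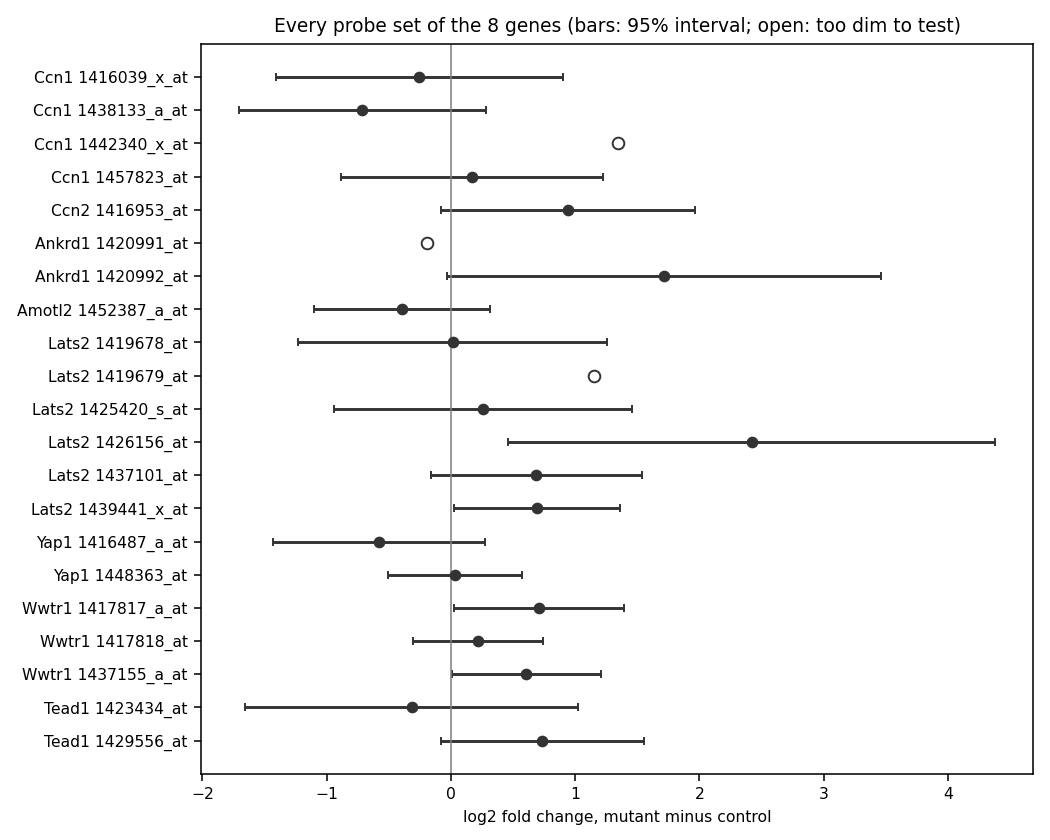
Log2 fold change of mutant over control liver (x axis) for each of the 21 probe sets; filled points carry the 95% interval of the limma fit, and the 3 open points are differences of means for probe sets too dim to test. On the main scaling all Lats2 and Wwtr1 points lie above 0, whereas Ccn1, Ankrd1, Yap1 and Tead1 have points on both sides.

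The coactivators themselves were above background on their probe sets, and neither passed. Yap1 had readings from its brightest probe set (1448363_at) of 7.60, 7.60 and 7.40 in controls and 7.87, 7.43 and 7.40 in mutants. The groups overlapped, and the fold change was 0.033 (SE 0.24, 95% interval -0.51 to 0.58, adjusted p = 0.957), or -0.12 without mutant 1. On the main scaling that interval spans less than a change of 1 on the log2 scale in either direction. On the deposited scaling the fold change was -0.42 (SE 0.30), with every mutant below every control. The other probe set (1416487_a_at) gave 5.09, 4.87 and 4.52 in controls and 4.01, 4.87 and 3.86 in mutants. Mutants 1 and 3 lay below every control there and mutant 2 among them, with -0.58 (SE 0.37, adjusted p = 0.464), or -0.46 without mutant 1. It was negative in all 14 alternative settings, down to -1.03 on the deposited scaling.

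Wwtr1 encodes TAZ, the paralogue of YAP, and all 3 of its probe sets had a higher mean in mutants. The brightest (1417818_at) gave 6.70, 6.64 and 6.85 in controls and 6.74, 7.05 and 7.05 in mutants, a fold change of 0.22 (SE 0.23, 95% interval -0.31 to 0.74, adjusted p = 0.645). On the deposited scaling it was -0.23 and with arrays centred on their median -0.014, and without mutant 1 it was 0.32. In 1437155_a_at the values were 5.13, 5.21 and 5.63 in controls and 6.01, 5.93 and 5.85 in mutants, with every mutant above every control and a fold change of 0.61 (SE 0.26, adjusted p = 0.362). On the deposited scaling its groups overlapped. In 1417817_a_at the values were 5.32, 5.31 and 5.72 in controls and 6.34, 6.43 and 5.72 in mutants. Mutant 3 lay just below control 3, and the fold change was 0.71 (SE 0.30, adjusted p = 0.358). These 2 probe sets were positive in all 14 alternative settings, and without mutant 1 they had 0.57 and 0.62.

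Tead1 is the DNA-binding partner that carries YAP and TAZ to GGAATG sites. Its brighter probe set (1429556_at) gave 4.78, 5.33 and 4.995 in controls and 6.44, 5.45 and 5.43 in mutants. All mutants lay above all controls, but mutants 2 and 3 only just, and mutant 1 well above them. On the deposited scaling the groups overlapped. The fold change was 0.74 (SE 0.35, 95% interval -0.083 to 1.55, adjusted p = 0.384), with 0.40 without mutant 1 and 0.21 after adjustment for the 3'/5' index. The dim probe set 1423434_at gave 2.19, 3.11 and 3.21 in controls and 3.14, 2.002 and 2.41 in mutants, with -0.32 (SE 0.58, adjusted p = 0.800) and both group means below background. Without mutant 1 it had -0.63.

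**Figure D3:**
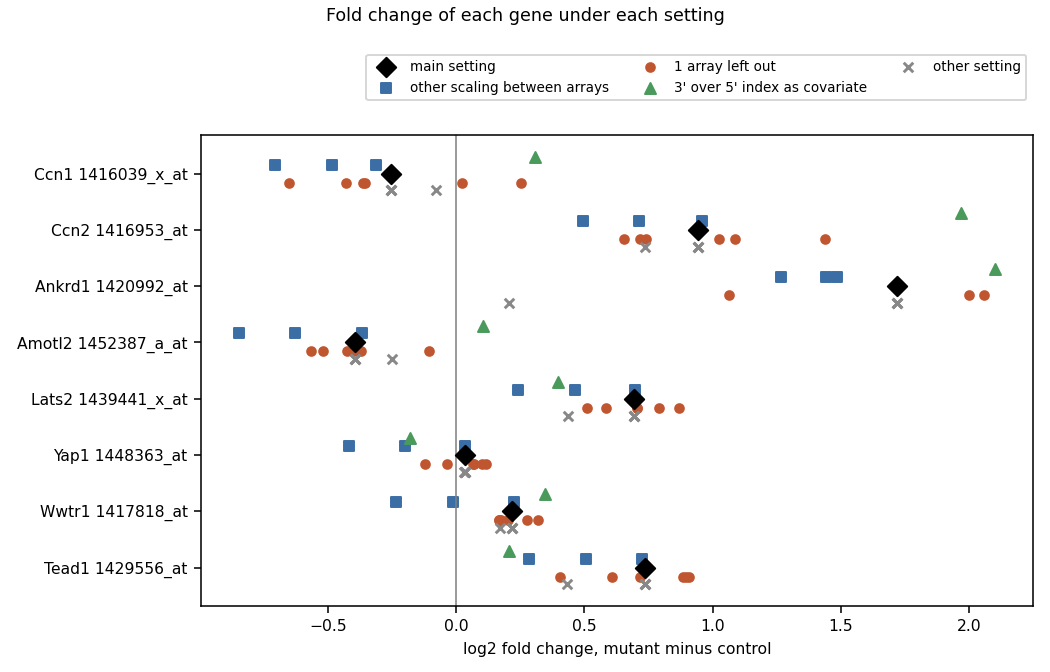
Log2 fold change (x axis) of the brightest tested probe set of each gene under the main setting (black diamond), other scalings between arrays (squares), 1 array left out (circles), adjustment for the 3'/5' index (triangles) and other settings (crosses). Ccn2, Lats2 and Tead1 stay above 0 in every setting, and Ccn1, Amotl2, Yap1 and Wwtr1 cross it. Ankrd1 lies above 0 where tested, but the filter kept it only through its mutant arrays and dropped it without any 1 of them.

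The rest of the pathway was read from lists written from textbook knowledge, with 1 probe set per gene. Among the Hippo kinases and their upstream regulators, 16 of 17 listed genes were tested and 0 passed, where 0.114% of all 13144 genes did. Their median log2 fold change was 0.24 with 12 positive and 4 negative, beside 0.062 for all genes, of which 54.1% were positive. Mutants and controls did not overlap in 2, both higher, where 14.1% of all genes were separated in that direction and 10.8% in the other. On the deposited scaling the list's median was -0.21, beside -0.39 for all genes, and 0 of its genes were separated higher and 1 lower. The share of all genes so separated was not computed for that scaling.

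The kinase Map4k4, which can act on LATS in parallel to MST, had the smallest p of that list (1422615_at). It gave 3.81, 3.54 and 4.25 in controls and 5.84, 4.75 and 4.50 in mutants, with 1.17 (SE 0.43, adjusted p = 0.334). On the main scaling the mutants lay above the controls on every array, and without mutant 1 the difference was 0.76 (adjusted p = 0.398). Rassf1, a scaffold that binds MST kinases, had 0.70 (SE 0.30, adjusted p = 0.361), and the kinase Taok2, which activates MST, had 0.93 (SE 0.43, adjusted p = 0.373), both with overlapping groups, and without mutant 1 they had 0.46 and 0.90. Lats1, the partner kinase of Lats2, gave 7.70, 7.66 and 7.73 in controls and 8.01, 8.08 and 7.62 in mutants, a difference of 0.21 on the log2 scale (SE 0.22, adjusted p = 0.659), or 0.15 without mutant 1.

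Of the YAP and TEAD partners and inhibitors, 10 of 16 listed genes were tested and 0 passed. The median was 0.18, beside 0.062 for all genes, with 7 positive and 3 negative. In 3 the groups did not overlap, all higher, where 14.1% of all genes were separated in that direction. On the deposited scaling the median was -0.27, beside -0.39 for all genes. There 0 genes were separated higher and 1 lower, again without a share over all genes. Wtip, a LIM protein that restrains LATS, had the smallest p, with 3.94, 4.66 and 4.35 in controls and 5.02, 4.86 and 4.99 in mutants (0.64, SE 0.31, adjusted p = 0.382). Vgll4, which competes with YAP for TEAD, had 0.61 (SE 0.32, adjusted p = 0.404), and Ptpn14, a phosphatase that binds YAP, had 0.52 (SE 0.28, adjusted p = 0.406). These 3 were the genes without overlap on the main scaling, and without mutant 1 Wtip, Vgll4 and Ptpn14 had 0.61, 0.64 and 0.47. Of the other TEAD factors Tead3 was tested (-0.34, SE 0.43, adjusted p = 0.703, and 0.025 without mutant 1), while Tead2 and Tead4 were too dim.

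The list of further YAP targets held more negative than positive values. Of 17 listed genes 14 were tested and 0 passed, and 4 were positive and 10 negative. The median was -0.33, beside 0.062 for all genes, and -0.78 on the deposited scaling, beside -0.39. On the main scaling groups did not overlap in 4, 2 higher and 2 lower, beside 14.1% and 10.8% of all genes. On the deposited scaling 0 were separated higher and 4 lower, without a share over all genes to set beside them. There 3425 of the 3895 probe sets with an unadjusted p under 0.05 in limma were lower in mutants. Ptpn14 stands in this list too. The smallest p belonged to Igfbp3 (1423062_at), a carrier of insulin-like growth factors, with 7.37, 7.15 and 7.41 in controls and 5.16, 5.88 and 5.71 in mutants. Every mutant lay far below every control, and the difference in means was -1.73 (SE 0.27, adjusted p = 0.0888). It passed without mutant 1 (-1.52, adjusted p = 0.0316), without mutant 2 (-1.88, adjusted p = 0.0299) and on the log2(signal + 32) scale (-1.25, adjusted p = 0.0435). Igfbp3 is also governed by growth hormone in liver, so it is no marker of YAP alone. Crim1, a transmembrane protein that binds growth factors, gave 5.21, 5.47 and 5.28 in controls and 6.03, 5.68 and 6.50 in mutants (0.75, SE 0.29, adjusted p = 0.344), or 0.77 without mutant 1.

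Ccdc80, a matrix protein, gave 7.39, 6.89 and 7.11 in controls and 5.18, 7.27 and 4.47 in mutants (-1.49, SE 0.64, adjusted p = 0.362). Mutant 2 lay at the control level, and without it Ccdc80 passed at -2.31 (adjusted p = 0.0246), while without mutant 1 it had -1.26. After adjustment for the 3'/5' index the median of this list was 0.036, beside 0.090 for all genes. The other CCN genes were dim: Ccn4 and Ccn5 had -1.56 and -1.61 with mutant means below background, Ccn3 and Ccn6 had both means below it, and 0 of the 4 passed. For Ccn4 that is at least 1.73-fold lower than in controls and for Ccn5 at least 1.69-fold, with adjusted p of 0.445 and 0.451, although mutant 1 lay at 4.01 and 4.57 in the 2 genes, above the control means, so these bounds hold for the group mean only. Without mutant 1 the fitted differences were -2.48 for Ccn4 and -2.79 for Ccn5.

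**Figure D4:**
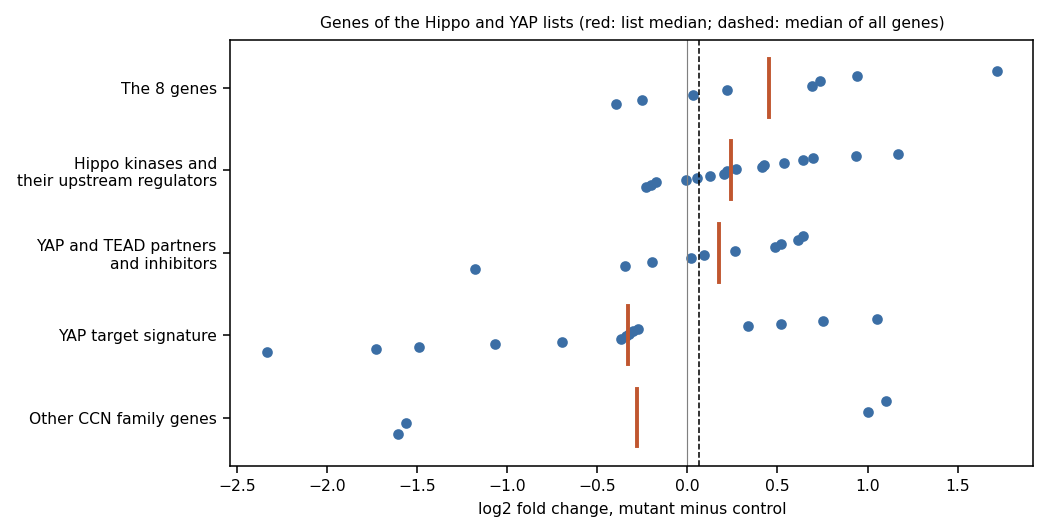
Log2 fold change of mutant over control (x axis) for every tested gene of the 8 genes and of the 4 lists, 1 point per gene at its brightest tested probe set; red lines are list medians and the dashed line the median of all 13144 genes, 0.062. The Hippo kinase list has its median at 0.24 and the YAP target list at -0.33.

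Genes with the array profile most like that of each CCN gene were sought among 13136 others, by the root mean square difference of log2 signals centred on their mean over the 6 arrays. Nearest to Ccn1 were Myh14, a nonmuscle myosin heavy chain (0.11), Rbks, ribokinase (0.11), and Sbk1, a kinase (0.14). Myh14 gave 5.14, 5.15 and 5.90 in controls and 4.31, 5.20 and 5.97 in mutants, which follows the low value of mutant 1 and the high values of control 3 and mutant 3. Nearest to Ccn2 were D330022H12Rik (0.14), Plek2, a pleckstrin family protein (0.21), and 4933427D14Rik (0.23). All 3 were near background, and mutant 1 lay below it in each, whereas Ccn2 was well above it on every array. Plek2 gave 2.47, 2.81 and 2.07 in controls and 2.15, 3.39 and 3.79 in mutants. Over 6 arrays and so many genes such likeness is a description only.

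Markers of the cell types that liver holds were set beside these genes. All sums here are on the main scaling. Hepatocyte markers were bright on every array, with 11 of 11 genes on the array above background. Their summed scaled signal was 54383 to 62025 in controls and 66095 to 81437 in mutants. On the deposited scaling these hepatocyte sums overlapped, with mutants 1 and 3 below every control. Stellate cell and fibroblast markers, cells in which Ccn2 is abundant, summed to 3293 to 3533 in controls and to 1023, 3451 and 1823 on the arrays of mutants 1 to 3, with 12 of 14 genes negative. The Ccn2 signals on those 3 arrays were 6.17, 7.56 and 7.73. Endothelial markers summed to 829 to 1191 in controls and 454 to 1608 in mutants (7 of 10 negative), and macrophage markers to 1551 to 2179 and 987 to 1682 (8 of 10 negative). Cholangiocyte markers summed to 101 to 150.0 in controls and 102 to 192 in mutants. Of the 8 on the array 6 were positive, and Cftr and Cldn7 were below background. Mesothelial markers summed to 31.6 to 77.4 and 26.4 to 45.3, with Msln, Lrrn4 and Wt1 below background. The brightest marker in each of these lists, in that order, was Apoa1, Dcn, Clec4g, Csf1r, Prom1 and Upk3b. No marker gene of these lists passed the test, and the part of these shifts in the values of the YAP pathway genes was not tested.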

How the data were processed

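Per the labels' protocols, liver RNA was labelled with biotin by the one-cycle Affymetrix procedure. The deposited table gives 1 linear intensity per probe set and array. GCOS, the scanner software, produced these signals per the submitters' processing notes, with an algorithm and scaling not given in the sources used here. Of 45101 probe sets 64 were array controls. Groups and replicate numbers came from the titles. The labels call the mice separate animals.

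Trimmed mean signals (2% cut at each end) were 37.3 to 69.9, so arrays were scaled to their common mean. Signals under 1 were set to 1 and log2 was taken. The dimmest 40% (mean log2 under 2.10) were left out, and 27022 probe sets were tested with limma 3.58.1 (R 4.3.3; lmFit, eBayes with a variance trend, two-sided, Benjamini-Hochberg over all of them, threshold 0.05). A list gene was read at its brightest kept probe set. Symbols were updated through Entrez identifiers for 34741 of 34945 probe sets. Background is the 95th percentile over 83 probe sets of olfactory, vomeronasal and taste receptors. Folds from a group below it use that level. The index of 3' over 5' signal is the mean log2 ratio of Actb, Gapdh and Pcx. The steps were tested on simulated data in which 200 probe sets were changed. Of true log2 changes of 1, 2, 4 and -4, they called 6%, 42%, 88% and 70%. The number of arrays limits the precision.

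Named genes were all 8 genes, Srf, the 3 smallest p-values of each pathway list, genes past the threshold, the 3 nearest profiles for Ccn1 and Ccn2, and of each marker list the brightest gene and absent defining markers. Lats1, Tead3, the dim TEAD genes and Ccn6 were named outside that rule, after their values were seen. Members and lists were chosen with earlier results of these data known. Alternatives were other scalings, no filter, log2(signal + 32), no variance trend, the index as a covariate, the replicate number as a block, and each array left out.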

Additional observations from a re-analysis of the deposited data

How the results depend on the processing

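No alternative brought a probe set of the 8 genes past the threshold. For their 8 brightest probe sets, 98 of 109 values kept their direction. On the deposited scaling Yap1 had -0.42 and Wwtr1 -0.23, and with arrays centred on their median -0.20 and -0.014. These scalings moved the median of all genes from 0.062 to -0.39 and -0.17. Adjusted for the 3'/5' index, Ccn1 had 0.31, Amotl2 0.10 and Yap1 -0.18. Leaving out 1 array gave Ccn1 between -0.65 and 0.25 (above 0 without control 3, at 0.023, and without mutant 1) and Yap1 between -0.12 and 0.12 (-0.034 without control 3, -0.12 without mutant 1). Ankrd1 (1420992_at) was left out by the filter without any 1 of the mutants, so those fits gave it no value.

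Over all probe sets, 20 passed (4 higher, 16 lower). The count was 35 on the deposited scaling (3 higher, 32 lower), 25 with median centring (4 and 21), 0 in limma without the filter (4704 at an unadjusted p under 0.05), 107 for log2(signal + 32), 9 without the variance trend and 5 with the index. Leaving out 1 array gave 2 to 578: 4, 2 and 3 without controls 1 to 3 and 126, 578 and 8 without mutants 1 to 3. In the list of further YAP targets the count was 1 for log2(signal + 32) and between 0 and 2 with 1 array left out. The alternatives for the lists were chosen after seeing the data. The replicate numbers are not said to pair the mice. Correlations of same-numbered deviations were -0.037, 0.018 and 0.041, and those of other pairs lay between -0.10 and 0.084. With 3 arrays per group they cannot settle whether mice were paired. With the number as a replicate block 22 probe sets passed and 0 of the 8 genes' did. The causes of these shifts were not tested.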
